A study of Mus musculus with 22 samples.

Results

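Transthyretin and the genes that carry, admit, convert and sense thyroid hormone were followed in the adult mouse choroid plexus (ChP), the epithelium that secretes cerebrospinal fluid (CSF). The group held 7 genes, Ttr, Slco1c1, Slco1a5, Dio2, Dio3, Thra and Thrb, of the 33964 genes in the count tables. They were chosen by name, with earlier results of these data known. RNA was sequenced in 14 pools of mice, 2 pools (A and B) for each of 7 groups, to ask how a lower dose of the homeobox gene Otx2 changes ChP expression. The conditional model used Otx2 lox/lox mice of the strain labelled S129, aged 3 months, in which all pools carried the floxed alleles. Cre-Tat, a recombinase protein that enters cells, was injected into the lateral ventricles of the pools labelled Cre-Tat and vehicle into the others, and ChPs of the lateral ventricles (LV) and of the hindbrain ventricle (4V) were taken 15 days later in pools of 5 Cre-Tat or 4 vehicle mice. No promoter restricts an injected protein to one cell type, and the study tested Otx2 in each of these ChPs by qPCR before pooling. The constitutive model, of the strain labelled B6D2, gave 4V pools labelled WT (5 mice each), Otx2 (+/-) (4 mice each, called Otx2+/GFP in the study's methods, lacking a copy of Otx2 in every cell of the body and throughout life) and Otx2 (+/AA). The sources used here do not define the AA allele and do not give the ages or numbers of mice of the Otx2 (+/AA) pools. WT and Otx2 (+/-) mice were 3 months old. Strain, injection, model and sequencing run (2014 for the conditional and 2013 for the constitutive model) cannot be told apart.

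Thyroid hormone reaches the brain mostly as thyroxine, a prohormone made in the thyroid gland. Transthyretin, a protein that ChP epithelium makes and secretes in large amounts, binds thyroxine in CSF, and membrane carriers of the organic anion and monocarboxylate transporter families let the hormone cross the blood-CSF barrier. Inside cells the deiodinase DIO2 converts thyroxine into triiodothyronine, the active hormone, DIO3 inactivates both hormones, and the receptors THRA and THRB bind triiodothyronine and regulate genes in the nucleus.

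The libraries have to be described before the genes. In the conditional model, 14 of 16 files are attached to a sample whose description gives another library number than the file carries, and files were joined to pools by the number they carry. Files that share a number differed by no more than sampling noise (chi-square per degree of freedom of 1.001 to 1.034 in 8 pairs), whereas files attached to the same pool differed by 13.58 to 21.39. Every direction given here for LV ChP and for Cre-Tat rests on this join, and the values with the files as attached are given with the other settings at the end. Otx2 was counted over its whole transcript, which includes sequence that the deleted or replaced part does not cover, so its count does not check the labels. It was 386 and 470 counts per 1000000 (CPM, on library totals scaled by TMM factors, which even out composition) in the vehicle LV pools against 1236 and 1025 in the Cre-Tat LV pools, 386 and 393 against 1203 and 1223 in 4V ChP, and 362 and 303 in WT against 1028 and 886 in Otx2 (+/-). The whole-transcript count was thus higher in each group labelled as having less Otx2, reads over the deleted part alone were not analysed here, and the groups are called by their labels. In the pools labelled Otx2 (+/AA), Otx2 was at 339 and 357 CPM. Pool totals ranged from 22750019 to 50088408 counts, and the 8 defining epithelial genes other than Otx2 (Kcnj13, Folr1, Clic6, Kl, Enpp2, Htr2c, Prlr and Aqp1) were detected in every pool, with Enpp2 alone at 20089 CPM or more. A pool is bulk tissue, so fewer cells of a type and less RNA per cell cannot be told apart in any value below.

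Positions are given on mouse build GRCm38 (mm10). Slco1c1 (chr6:141524368-141570177, plus strand) and Slco1a5 (chr6:142234227-142322981, minus strand) are neighbours in the same cluster of organic anion transporter genes, which also holds Slco1b2, Slco1a4 and Slco1a6. Dio2 (chr12:90724552-90738438, minus strand) and Dio3 (chr12:110279068-110281097, plus strand) share a chromosome, Thra is at chr11:98740638-98769006 and Thrb at chr14:17660261-18038090, both on the plus strand.

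RefSeq promoter windows of GRCm38.p6 (250 bases before and 50 after a start) were found for 5 of the 7 members, and Thra and Ttr had none. The windows were searched on both strands for TAATCC, the core that OTX2 and related homeodomain proteins prefer, which 7.06% of 32851 windows of the same length held, and for the TATA box core TATAAA, which 13.6% held (the motifs overlap in no window of a member). The sequences before the starts of Slco1c1, which fell in 4V ChP of the Cre-Tat pools, of its neighbour Slco1a5 and of the activating deiodinase Dio2 are shown 5′ to 3′ on the gene's strand, with TATAAA in capitals, and the 30 bases of the first Thrb window that hold TAATCC on the opposite strand follow, with the motif in capitals.
Slco1c1, chr6:141524104-141524353, plus strand: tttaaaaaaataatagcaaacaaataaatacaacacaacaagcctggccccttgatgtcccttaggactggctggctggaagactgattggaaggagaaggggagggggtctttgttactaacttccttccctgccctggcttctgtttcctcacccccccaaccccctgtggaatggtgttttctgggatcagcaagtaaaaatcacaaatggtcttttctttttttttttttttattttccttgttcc
Slco1a5, chr6:142322982-142323231, minus strand: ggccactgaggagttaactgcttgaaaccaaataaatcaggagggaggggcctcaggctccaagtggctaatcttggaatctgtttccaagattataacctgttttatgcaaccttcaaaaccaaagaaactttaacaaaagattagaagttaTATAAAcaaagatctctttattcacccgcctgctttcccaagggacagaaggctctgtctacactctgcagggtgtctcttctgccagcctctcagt
Dio2, chr12:90739039-90739288, minus strand: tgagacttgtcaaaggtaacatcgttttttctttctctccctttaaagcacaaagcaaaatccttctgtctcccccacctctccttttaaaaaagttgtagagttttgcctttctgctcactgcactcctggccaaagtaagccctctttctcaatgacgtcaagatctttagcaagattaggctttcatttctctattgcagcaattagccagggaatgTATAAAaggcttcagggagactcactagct
Thrb, chr14:17660902-17660931, plus strand: cgtgacgcggcgGGATTAactttgcatggc
TATAAA was found in 6 of the 7 windows of members. Dio2 held it from base -30 of its RefSeq start and Dio3 from base -31, the usual place of a TATA box, and the Slco1a5 window shown held it from base -97. The other Slco1a5 window held it from base -196, the second Thrb window from base -167 and Slco1c1 from base 2, past the bases shown. TAATCC was found in 1 of the 7 windows of members, that of Thrb at base -46. The Dio2 gene as counted starts at base 90738438 of chromosome 12, outside its RefSeq window. Thrb starts at base 17660261 of chromosome 14, before its first window. Dio3 starts at base 110279068 of chromosome 12, inside its window but before its RefSeq start. A match describes these letters and not a bound site.

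Transthyretin, whose gene Ttr lies at chr18:20665280-20674321 on the plus strand, was by far the most abundant of the 7 transcripts. Ttr ranked 2nd of all genes by CPM in each of the 14 pools, behind the mitochondrial ribosomal RNA mt-Rnr2, and took 6.71% to 16.1% of the counts on the transcripts analysed. Per kilobase of transcript, so that genes can be compared, the median over pools was 105633 CPM per kb for Ttr and 263 for Slco1c1. The receptors Thra and Thrb had medians of 17.7 and 13.7 CPM per kb and Slco1a5 one of 11.8. Dio2 was at 0.282 CPM per kb, with 10 to 272 counts in a pool. Dio3, the inactivating enzyme, had 23 counts in all 14 pools together and was at 0 counts in 8 of them, where a floor of 3 counts allows up to 0.121 to 0.222 CPM; such floors cover counting error only. It passed the filter on low counts in no comparison and was not tested, so each count below is of 6 tested members.

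**Figure D1:**
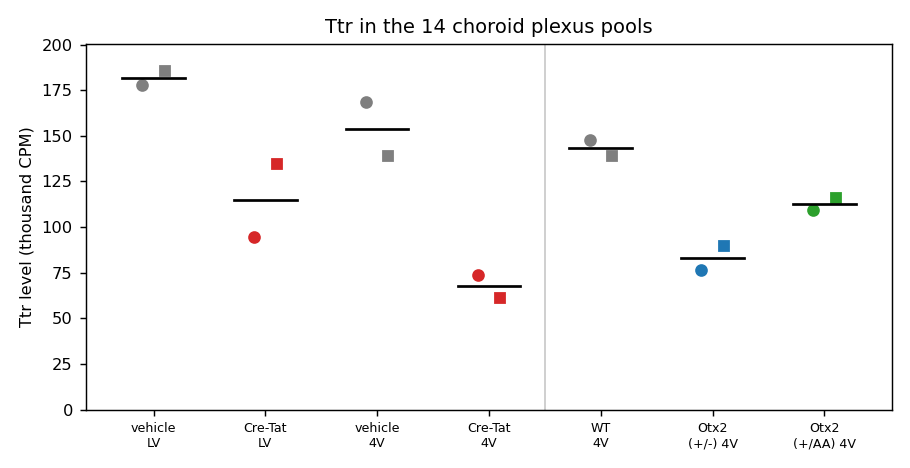
Ttr level in units of 1000 CPM (vertical axis, from 0) in each pool of the 7 groups (horizontal axis; circles pool A, squares pool B, black bars the mean of 2 pools, grey line between the 2014 and 2013 runs). The Cre-Tat 4V pools lie lowest at 73854 and 61141 CPM, followed by Otx2 (+/-) at 76433 and 89920 CPM, and the vehicle LV pools lie highest.

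Ttr was lower in each group labelled with a change of Otx2 than in its control. In 4V ChP, its level was 168266 and 138760 CPM in the vehicle pools and 73854 and 61141 CPM in the Cre-Tat pools. The groups did not overlap, and Ttr fell by 55.9% (log2 fold change -1.18 ± 0.30 SE, n = 2 pools a group, adjusted p = 0.0149 in edgeR's quasi-likelihood test, the test used throughout, adjusted over all genes by Benjamini-Hochberg). Without vehicle pool A the log2 fold change was -1.03 and the adjusted p 0.104, which ends the call (range over the settings other than the files as attached 4.44e-23 to 0.104). In the constitutive model, Ttr was at 147873 and 139159 CPM in WT and 76433 and 89920 CPM in Otx2 (+/-). It fell by 42.0% (log2 fold change -0.79 ± 0.17, adjusted p = 0.0397), again with no overlap, and missed the threshold without WT pool A (adjusted p = 0.0648; range 2.37e-06 to 0.0648). Ttr passed the test in both 4V comparisons, but the fall in one was not shown to differ from the other: the difference of the log2 fold changes was 0.41 ± 0.28 (adjusted p = 0.584).

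LV ChP and the Otx2 (+/AA) pools gave lower values of Ttr that did not pass. In LV ChP the vehicle pools held 177703 and 185460 CPM and the Cre-Tat pools 94687 and 134579 CPM. The pools did not overlap, the log2 fold change being -0.66 ± 0.19 and an adjusted p of 0.0771, and 7 of 14 settings other than the files as attached passed the threshold, among them DESeq2 with an adjusted p of 0.0111 (range over those settings 3.16e-05 to 0.163). The Cre-Tat LV pools differed from each other, since the log2 fold change was -0.93 without pool B and -0.42 without pool A. The response in 4V minus that in LV was -0.52 ± 0.30 on the log2 scale (adjusted p = 1). Otx2 (+/AA) pools held 109545 and 115984 CPM, below both WT pools, with a log2 fold change of -0.36 ± 0.12 and an adjusted p of 0.322. Between Otx2 (+/-) and Otx2 (+/AA) the log2 fold change was -0.43 ± 0.17 (adjusted p = 0.267). In vehicle mice, Ttr was 0.24 ± 0.15 higher on the log2 scale in LV than in 4V ChP, which did not pass (adjusted p = 0.384) except without vehicle 4V pool A (0.40, adjusted p = 0.0205).

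Other epithelial genes moved with Ttr, and their part in its change was not tested. Of the 9 epithelial markers, 8 fell and 1 (Otx2) rose in 4V ChP of the pools labelled Cre-Tat, and the summed level of the 8 other than Otx2 was 45694 and 49644 CPM in the vehicle and 23747 and 25284 CPM in the Cre-Tat pools. In LV ChP 4 of the 9 fell, and in Otx2 (+/-) 2 fell (Folr1, the folate receptor, and Prlr, the prolactin receptor), with summed levels of 41890 and 47611 CPM beside 48932 and 51063 in WT. The ratio of Ttr to that sum was 3.39 and 3.04 in the vehicle 4V pools and 3.11 and 2.42 in the Cre-Tat 4V pools, which overlap. It was 2.90 and 2.84 in WT and 1.61 and 2.15 in Otx2 (+/-), which do not. In Otx2 (+/AA) the ratio was 2.48 and 2.83, and in LV ChP it was 4.04 and 4.07 in vehicle beside 3.36 and 4.54 in Cre-Tat pools. Enpp2 held most of that sum, with group means of 42935 CPM in WT and 39546 CPM in Otx2 (+/-), so the ratio mainly sets Ttr beside Enpp2. By group mean, Otx2 (+/-) held Prlr at 459 CPM (WT 1305), Folr1 at 381 (608), Aqp1 at 247 (376) and Kcnj13 at 445.5 (648). Kl was at 1931 (2335) and Htr2c at 374 (465), and Clic6 was higher at 1367 (1325).

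Across the 6 tested members, 2 passed the threshold of an adjusted p of 0.05 in 4V ChP of the Cre-Tat pools, Ttr and Slco1c1, both lower, where 4.99% of all 14537 genes tested were lower and 5.70% higher. DESeq2 also called 2, and 3 had an unadjusted p under 0.05 (Ttr, Slco1c1 and Thra). In LV ChP 0 of 6 passed, where 1.03% of all genes were lower and 2.21% higher, with 1 of 6 by DESeq2 and 1 at an unadjusted p under 0.05, in each case Ttr. In Otx2 (+/-) against WT 1 passed (Ttr, lower), where 1.74% of all genes were lower and 1.79% higher. DESeq2 called 2 there, and 4 had an unadjusted p under 0.05 (Ttr, Slco1c1, Slco1a5 and Dio2). In Otx2 (+/AA) against WT 0 passed, where 0.173% of genes were lower and 0.173% higher, with 1 by DESeq2 (Dio2) and 3 at an unadjusted p under 0.05 (Ttr, Dio2 and Thrb). Otx2 (+/-) against Otx2 (+/AA) gave 0, where 1.33% of genes were lower and 1.37% higher, with 1 by DESeq2 (Slco1c1) and 3 at an unadjusted p under 0.05 (Ttr, Slco1c1 and Slco1a5). Vehicle LV against vehicle 4V ChP gave 0, where 4.00% of genes were lower and 3.49% higher, with 0 by DESeq2 and 2 at an unadjusted p under 0.05 (Slco1c1 and Thra). The median log2 fold change of the members was -0.10 in LV and -0.28 in 4V ChP of the Cre-Tat pools, beside 0.00 and 0.01 over all genes, and it was 0.14 in Otx2 (+/-) and 0.13 in Otx2 (+/AA) against WT. The WT, Otx2 (+/-), Otx2 (+/AA), vehicle LV and vehicle 4V pools each enter more than 1 of these comparisons, which are therefore not independent.

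**Figure D2:**
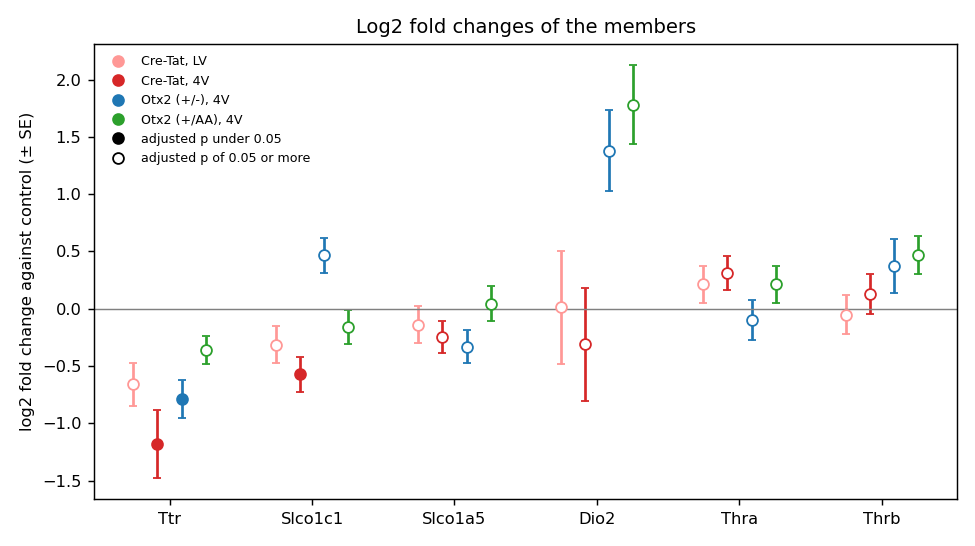
Log2 fold change against the control group (vertical axis, ± SE) of the 6 tested members (horizontal axis) in 4 comparisons (colours); filled points have an adjusted p under 0.05. Ttr lies below 0 in each, Slco1c1 lies at -0.57 in Cre-Tat 4V and at 0.47 in Otx2 (+/-) 4V, and Dio2 lies highest in the constitutive groups with wide errors.

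Slco1c1 encodes OATP1C1, a carrier with high affinity for thyroxine at the barriers of the brain. Its level was 754 and 617 CPM in the vehicle and 471 and 449 CPM in the Cre-Tat pools of 4V ChP. It fell by 32.7% there (log2 fold change -0.57 ± 0.15, adjusted p = 0.0212), with no overlap between groups. The call was lost without vehicle pool A (adjusted p = 0.395) and with totals in place of TMM factors (adjusted p = 0.0834; range over the settings other than the files as attached 6.05e-08 to 0.395). In LV ChP it was 900 and 854 CPM in vehicle beside 713 and 697 CPM in Cre-Tat pools, a log2 fold change of -0.31 ± 0.16 that did not pass (adjusted p = 0.41).

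In the constitutive model Slco1c1 lay the other way. It was at 735 and 575 CPM in WT and at 959 and 846 CPM in Otx2 (+/-), where both pools were above both WT pools, with a log2 fold change of 0.47 ± 0.15 and an adjusted p of 0.144. Otx2 (+/AA) pools, at 627 and 552 CPM, overlapped WT (log2 fold change -0.16 ± 0.15, adjusted p = 0.85), and Otx2 (+/-) against Otx2 (+/AA) gave 0.62 ± 0.15 (adjusted p = 0.0535; 7 of 13 settings under the threshold, range 0.00251 to 0.216). The difference itself, the response in Otx2 (+/-) minus the response to Cre-Tat in 4V ChP, was 1.05 ± 0.22 on the log2 scale and passed (adjusted p = 0.0276), with 1 of 6 members called where 1.61% of 15314 genes were called in either direction. That call was lost in 6 of the 8 fits that leave out 1 pool, all except those without WT pool A and Otx2 (+/-) pool B, with adjusted p up to 0.156. The corresponding difference between the ventricles was -0.26 ± 0.21 (adjusted p = 1), and 0 members passed there, where 0.00643% of genes, 1 in all, were called, with 0 members by DESeq2 and 0 at an unadjusted p under 0.05. Reads of Slco1c1 were counted on 2 transcripts with nearly equal totals, 187050 and 181477 counts, so the coding and the non-coding form cannot be told apart.

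Slco1a5, a related organic anion transporter that carries thyroid hormone, was at 29.3 to 36.9 CPM in the 2014 run and 19.6 to 29.8 CPM in the 2013 run. Cre-Tat pools lay below their vehicle pools in both ventricles, at 35.3 and 31.0 CPM beside 36.9 and 36.2 in LV ChP and 31.2 and 29.3 beside 36.6 and 35.3 in 4V ChP. Otx2 (+/-) pools, at 19.6 and 22.6 CPM, lay below WT, at 25.0 and 28.2. None of these differences passed, with log2 fold changes of -0.14 ± 0.16 (0.03 with totals in place of TMM factors), -0.25 ± 0.14 and -0.33 ± 0.14 and adjusted p of 0.833, 0.337 and 0.262. Totals in place of TMM factors moved the median of all genes by 0.17 in LV and 0.15 in 4V ChP on the log2 scale. Of its 50-base windows 5.23% are shared with other genes, most with Slco1a4, so a part of its counts could belong to them.

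**Figure D3:**
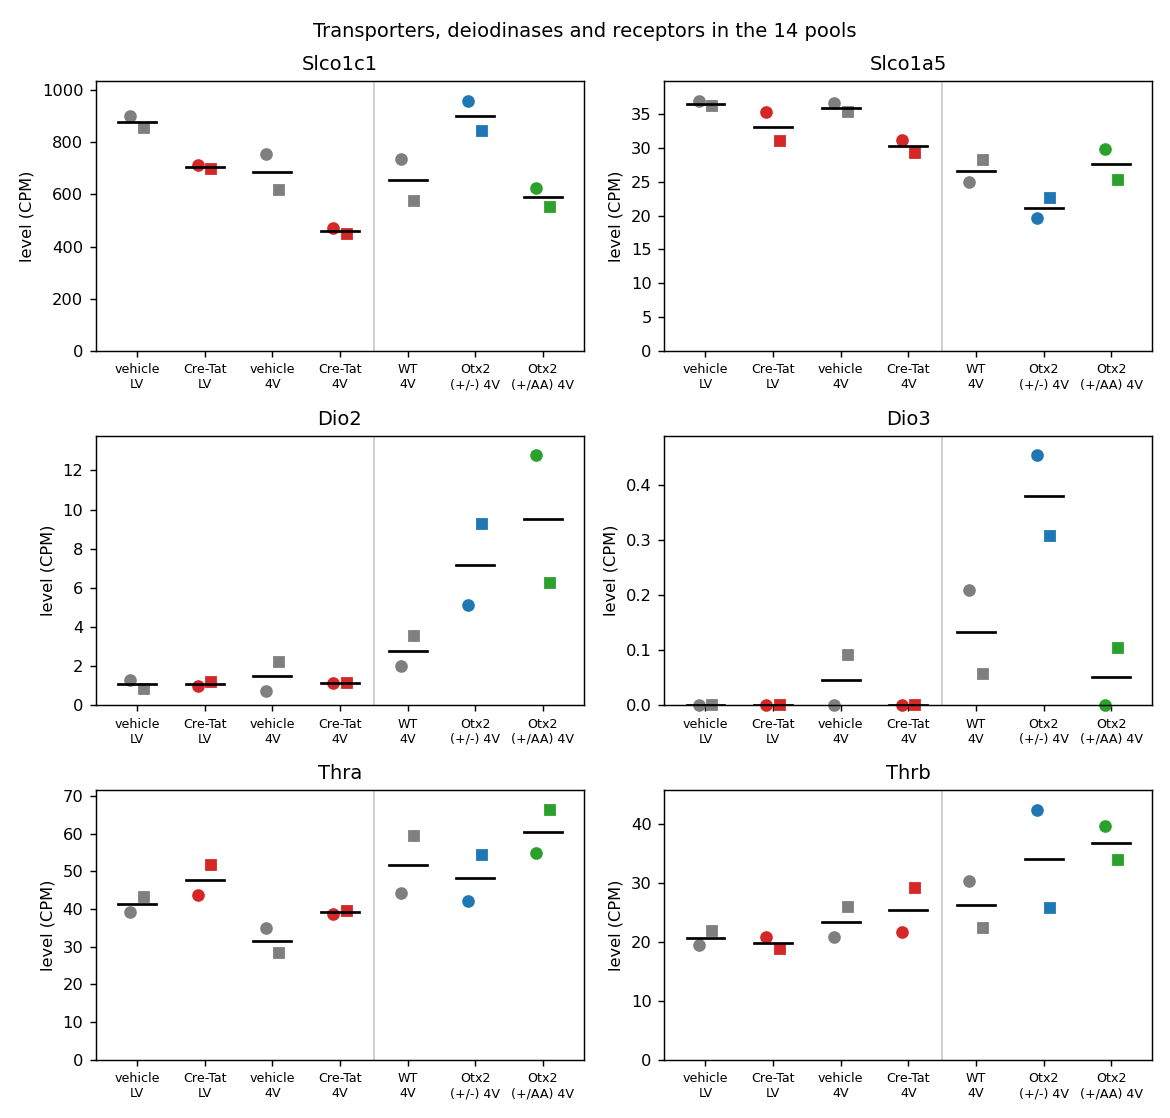
Levels in CPM (vertical axes, from 0, each panel its own scale) of the other 6 members in each pool of the 7 groups (horizontal axes; circles pool A, squares pool B, black bars the mean of 2 pools, grey line between the 2014 and 2013 runs). Dio2 is at 5.10 CPM or more in each Otx2 (+/-) and Otx2 (+/AA) pool and at 3.55 CPM or less elsewhere, and Dio3 is at or near 0.

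Dio2, the activating deiodinase, was scarce. The 8 pools of the 2014 run held 10 to 27 counts each, at 0.741 to 2.22 CPM, and Cre-Tat and vehicle pools overlapped in both ventricles, with log2 fold changes of 0.01 ± 0.49 in LV and -0.31 ± 0.49 in 4V ChP (adjusted p of 0.998 and 0.79). At this depth a change of that size was not detectable. WT pools held 38 and 63 counts (1.98 and 3.55 CPM), Otx2 (+/-) pools 101 and 180 counts (5.10 and 9.25 CPM) and Otx2 (+/AA) pools 272 and 120 counts (12.8 and 6.26 CPM). Both constitutive groups lay above both WT pools. The log2 fold changes were 1.38 ± 0.36 (adjusted p = 0.0796) and 1.78 ± 0.35 (adjusted p = 0.0538), so neither passed; 5 of 13 settings passed in the first (range of adjusted p 2.06e-06 to 0.204) and 7 of 13 in the second (7.52e-10 to 0.359). The Otx2 (+/-) and Otx2 (+/AA) pools overlapped (-0.41 ± 0.33, adjusted p = 0.632), and Dio2 passed as lower in Otx2 (+/-) without Otx2 (+/-) pool B (-0.90, adjusted p = 0.0381) or without Otx2 (+/AA) pool B (-0.83, adjusted p = 0.0153). In Otx2 (+/-), 2 of 6 astrocyte markers rose (Aqp4 with a log2 fold change of 1.74 and Slc1a3 with 1.61) and 0 fell. In Otx2 (+/AA) 0 of 6 passed with edgeR (1 with DESeq2, 2 at an unadjusted p under 0.05). The sum of the 6 was 174.4 to 255.2 CPM in Otx2 (+/-) and 190 to 211 CPM in Otx2 (+/AA), both above the 168 to 173.5 CPM of WT. The part of these markers in the level of Dio2 was not tested. The astrocyte marker Gfap was 4.52 CPM or more in every pool.

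Dio3 had 9 and 6 counts in the Otx2 (+/-) pools, 4 and 1 in WT, 0 and 2 in Otx2 (+/AA), 1 in vehicle 4V pool B and 0 in the other 7 pools of the conditional model. No fold is given at these counts. The related enzyme Dio1, which converts thyroxine mainly in liver and kidney, was at 0 counts in both vehicle 4V pools and at 1.14 and 0.806 CPM in the Cre-Tat 4V pools, at least 3.90-fold higher against a floor of 3 counts per vehicle pool (adjusted p = 0.00294).

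Neither receptor gene passed in any comparison as designed. Thra was at 34.8 and 28.3 CPM in vehicle and 38.8 and 39.5 CPM in Cre-Tat pools of 4V ChP, and at 39.2 and 43.2 beside 43.8 and 51.6 CPM in LV ChP. Cre-Tat pools were above vehicle pools in both ventricles, with log2 fold changes of 0.31 ± 0.15 (adjusted p = 0.223) and 0.21 ± 0.16 (adjusted p = 0.664). In WT it was at 44.1 and 59.4 CPM, which overlapped both Otx2 (+/-) at 42.2 and 54.2 and Otx2 (+/AA) at 54.8 and 66.3. Otx2 (+/-) lay below Otx2 (+/AA) without overlap, a log2 fold change of -0.32 ± 0.16 that did not pass (adjusted p = 0.392). Of the Thra transcript, 263 bases (10.7%) overlap Nr1d1 on the opposite strand, and the strand used for counting is not given in the sources used here, so reads of the pair cannot be told apart there.

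Thrb was at 18.7 to 29.1 CPM in the 2014 run, where Cre-Tat and vehicle pools overlapped in both ventricles (log2 fold changes -0.05 ± 0.17 in LV, 0.12 with totals in place of TMM factors, and 0.13 ± 0.17 in 4V ChP, adjusted p of 0.956 and 0.741). In the 2013 run WT pools held 30.3 and 22.3 CPM, Otx2 (+/-) pools 42.3 and 25.8 CPM and Otx2 (+/AA) pools 39.6 and 33.8 CPM. Otx2 (+/AA) lay above WT with a log2 fold change of 0.47 ± 0.17 that did not pass (adjusted p = 0.342), and Otx2 (+/-) overlapped WT (0.38 ± 0.24, adjusted p = 0.458). Without Otx2 (+/-) pool B the latter passed (0.69, adjusted p = 0.047). The 3 transcripts of Thrb, of 1758, 4532 and 6200 bases, held 7110, 5343 and 6638 counts over all pools, and a read can count on more than one of them.

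Ranked by group mean, Ttr ran from Cre-Tat 4V (67498 ± 8990 CPM, SD, n = 2) through Otx2 (+/-), Otx2 (+/AA), Cre-Tat LV, WT and vehicle 4V to vehicle LV (181582 ± 5485). The neighbours Otx2 (+/AA) and Cre-Tat LV overlapped, as did WT and vehicle 4V. Slco1c1 also was lowest in Cre-Tat 4V (460 ± 15.5) but highest in Otx2 (+/-) (902 ± 80.1), which overlapped vehicle LV (877 ± 32.7). Slco1a5 was lowest in Otx2 (+/-) and highest in vehicle LV, and Dio2 was lowest in vehicle LV and highest in Otx2 (+/AA). Thra was lowest in vehicle 4V and highest in Otx2 (+/AA), and Thrb lowest in Cre-Tat LV and highest in Otx2 (+/AA). Groups of different runs in these orders also differ in strain and injection.

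The members did not share 1 pattern across pools. After each run's mean was subtracted from log2(CPM + 0.5), Pearson's r over the 14 pools, which share runs and depth, was 0.68 between Ttr and Slco1a5 and 0.46 between Ttr and Slco1c1, but -0.02 between Slco1a5 and Slco1c1 and -0.47 between Ttr and Thrb. Among 8333 genes with a mean of 10 CPM or more, the patterns most like that of Ttr were those of Hemk1 (r = 0.983), Gde1 (0.982) and Lrpap1 (0.982), and those most like Slco1c1 were Slc16a6 (0.945), Tll1 (0.931) and Acss1 (0.923). Slco1a5 was most like Khdrbs3 (0.924), Galnt12 (0.896) and Tom1l1 (0.885). Dio2 was most like Trmt2b (0.847), Hnrnpr (0.836) and Nrf1 (0.808). Thra was most like Ntan1 (0.946), Necap2 (0.931) and Hadh (0.915), and Thrb most like Hdac4 (0.934), Zfp532 (0.883) and Ogfod1 (0.865). These are descriptions of 14 pools and carry no test.

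The other transporters of thyroid hormone were described as a list of 12 genes. In 4V ChP of the Cre-Tat pools 9 were tested, 2 fell and 0 rose, with a median log2 fold change of 0.15 beside 0.01 over all genes. In LV ChP 0 of 8 passed with edgeR and 0 with DESeq2, and 2 had an unadjusted p under 0.05. Slco1a4, of the same cluster as the members, fell by 0.57 ± 0.13 on the log2 scale in 4V ChP (adjusted p = 0.00832) and Slc7a5, a subunit of an amino acid exchanger that also carries the hormone, by 0.61 ± 0.18 (adjusted p = 0.036). Both calls were lost without vehicle 4V pool A (adjusted p of 0.0988 and 0.206) and with totals in place of TMM factors (0.0643 and 0.119), and that of Slc7a5 also without vehicle 4V pool B (0.0762), without Cre-Tat 4V pool A (0.0748) and by DESeq2 (0.117). Slc7a5 passed in 6 of 13 settings other than the files as attached.

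In Otx2 (+/-) the transporters that passed were others. Of 10 tested, 2 rose against WT and 0 fell, with a median log2 fold change of 0.27. Slc16a10, the aromatic amino acid carrier MCT10 that also moves thyroid hormone, went from 0.418 and 0.788 to 3.888 and 3.495 CPM (2.62 ± 0.38, adjusted p = 0.00744). Slco1a6 went from 3.08 and 3.32 to 18.1 and 12.2 CPM (2.25 ± 0.24, adjusted p = 0.00183), and its response differed from that to Cre-Tat by 2.10 ± 0.36 (adjusted p = 0.0114, lost without vehicle 4V pool B with 0.0785 and with sums over transcripts with 0.0565). Both also were above Otx2 (+/AA), by 2.31 ± 0.34 and 1.39 ± 0.22 on the log2 scale, as was Slco3a1 by 0.69 ± 0.16 (adjusted p of 0.00333, 0.00517 and 0.045). Slco3a1 passed in 7 of 13 settings (adjusted p up to 0.112) and lost its call without Otx2 (+/-) pool B (0.0985) or Otx2 (+/AA) pool B (0.0652), among others. In vehicle mice Slco1a6 was at 0.812 and 0.846 CPM in LV and 4.37 and 6.09 CPM in 4V ChP (-2.64 ± 0.35, adjusted p = 0.000495), and Slco2b1 was higher in LV (1.17 ± 0.19, adjusted p = 0.00203). In Otx2 (+/AA) against WT 0 of 10 transporters passed with edgeR and 0 with DESeq2, and 3 had an unadjusted p under 0.05.

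Genes that thyroid hormone is known to regulate did not move in a single direction. Of 7 tested in 4V ChP of the Cre-Tat pools, 2 rose, Klf9 (0.59 ± 0.13, adjusted p = 0.00654) and Thrsp (1.10 ± 0.21, adjusted p = 0.0019), and 2 fell, Me1 (-0.62 ± 0.16, adjusted p = 0.0156) and Camk4 (-0.55 ± 0.17, adjusted p = 0.0433), with a median of -0.14. KLF9 is a transcription factor, THRSP and the malic enzyme ME1 serve lipid synthesis, and CAMK4 is a calcium-dependent kinase. Without vehicle 4V pool A the calls of Klf9, Me1 and Camk4 were lost (adjusted p of 0.116, 0.0847 and 0.181), as were those of Me1 and Camk4 without Cre-Tat 4V pool A (0.0777 and 0.309) and that of Camk4 without vehicle 4V pool B (0.0524). Of 13 settings other than the files as attached, Me1 passed in 9 and Camk4 in 5. Thrsp also rose in LV ChP (0.97 ± 0.20, adjusted p = 0.0147), where 6 other targets did not pass and where the call was lost without vehicle LV pool A (adjusted p = 0.0773). In Otx2 (+/-) and Otx2 (+/AA) against WT 0 of 6 targets passed with edgeR and 0 with DESeq2 (1 and 0 at an unadjusted p under 0.05), with medians of -0.05 and -0.18, and between the constitutive groups Camk4 was lower in Otx2 (+/-) (-0.93 ± 0.20, adjusted p = 0.0262, lost with sums over transcripts with 0.0782).

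Of the hypothalamic and pituitary axis that governs the gland, Trhr, the receptor of thyrotropin-releasing hormone, was the only 1 of 4 listed genes tested within 4V ChP. It was at 0.888 and 1.29 CPM in WT and 28.3 and 38.7 CPM in Otx2 (+/-), 4.94 ± 0.26 higher on the log2 scale (adjusted p = 0.00016), and at 1.83 and 3.81 CPM in Otx2 (+/AA), below Otx2 (+/-) by 3.59 ± 0.28 (adjusted p = 4.51e-05). Cre-Tat and vehicle 4V pools overlapped, at 4.34 and 3.48 beside 4.15 and 2.49 CPM, and the response differed between models by 4.74 ± 0.41 (adjusted p = 0.000209). In vehicle mice Trhr was lower in LV, at 0.478 and 0.796 CPM (-2.39 ± 0.45, adjusted p = 0.00587, lost without vehicle 4V pool A with an adjusted p of 0.102).

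Of the genes for hormone metabolism and for deiodinase regulation, Dio1 alone passed with edgeR in any of the comparisons (1 of 9 tested in Cre-Tat 4V pools). Of the receptor partners and co-regulators Rxra, the retinoid partner of the hormone receptors, alone passed with edgeR, higher in vehicle LV than 4V ChP (0.46 ± 0.12, adjusted p = 0.0371, lost without vehicle LV pool B, vehicle 4V pool A or vehicle 4V pool B, with adjusted p of 0.225, 0.142 and 0.18, and kept in 6 of 13 settings other than the files as attached). In the list of binding proteins 0 passed in any comparison with edgeR and 0 with DESeq2, and 1 had an unadjusted p under 0.05 in Otx2 (+/-) against WT and against Otx2 (+/AA). Rbp4, whose protein travels with transthyretin, was at 1.079 to 3.58 CPM, and the thyroxine carrier Alb at 0.522 CPM or less in every pool.

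**Figure D4:**
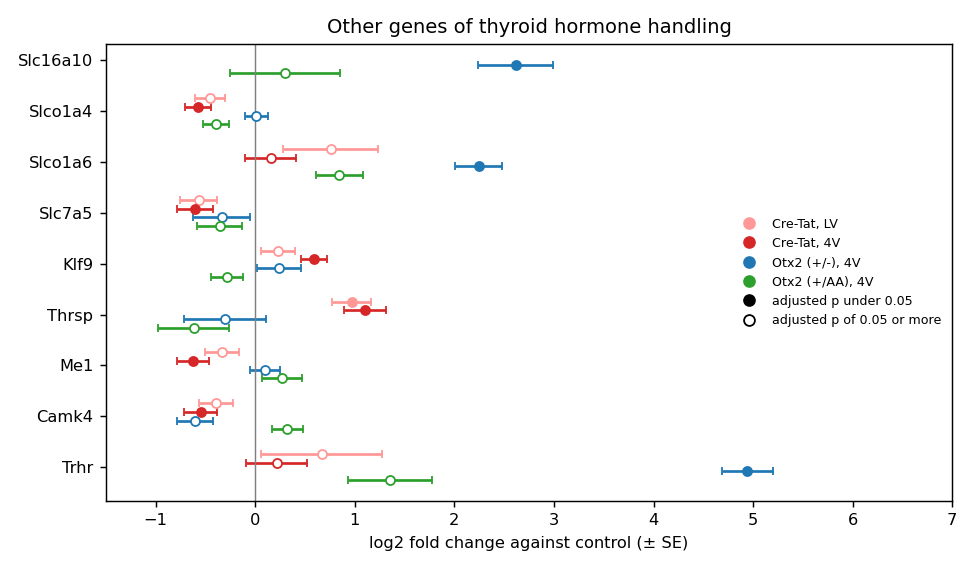
Log2 fold change against the control group (horizontal axis, ± SE) of the other genes of thyroid hormone handling that passed the test in at least 1 of 4 comparisons (vertical axis; colours give the comparison, filled points an adjusted p under 0.05, no point where a gene was not tested). Thrsp lies above 0 with filled points in both Cre-Tat comparisons, and Slc16a10, Slco1a6 and Trhr lie above 2 in Otx2 (+/-); Dio1 is left out because its vehicle 4V pools held 0 counts.

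Markers of other cell types differed between these groups too, and their part in the values above was not tested. In Cre-Tat pools 4 of 5 macrophage markers rose in 4V ChP (sum 48.9 to 62.7 CPM beside 28.4 to 28.8 in vehicle) and 2 of 5 in LV ChP (70.4 to 78.7 CPM beside 37.4 to 45.9). Of 6 astrocyte markers 3 rose and 1 fell in 4V ChP and 2 rose and 1 fell in LV ChP, with sums that overlapped in 4V ChP (132 to 136 beside 121 to 147 CPM) but not in LV ChP (124 to 147 beside 104 to 121 CPM). Of 6 ependymal and tanycyte markers 1 rose in each ventricle. The neuronal markers were low in all pools (sum 6.82 to 23.1 CPM, with Tubb3 at 0 counts in 4 pools), and 1 rose in LV and 1 fell in 4V ChP. No endothelial, oligodendrocyte, fibroblast or mural marker passed in either Cre-Tat comparison with edgeR or DESeq2, and 2 of the 14 had an unadjusted p under 0.05 in LV and 0 in 4V ChP. In Otx2 (+/-) against WT 0 neuronal, ependymal, oligodendrocyte, endothelial, fibroblast, mural or macrophage markers passed with edgeR, with 2 fibroblast and mural markers by DESeq2 and 5 of these markers at an unadjusted p under 0.05. The summed fibroblast and mural level was 776 to 823 CPM in Otx2 (+/-) and 557 to 592 CPM in WT, which do not overlap, and 486 to 611 CPM in Otx2 (+/AA).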

How the data were processed

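RNA of 14 pools of choroid plexus was sequenced with 50-base reads. Per the labels, ribosomal RNA was depleted and libraries were strand-specific, whereas the study's methods name polyA+ RNA. The submitters' processing notes name bcl2fastq 1.8.4, Bowtie 0.12.9, SAMtools, HTSeq 0.5.3 and DESeq 1.8.3 with build mm10. The authors deposited raw read counts per transcript, not per gene, in 22 files (11253762 to 43790479 counts each). The runs of a conditional pool (2 files each) were summed by library number. Of 95533 transcripts, 82807 matched GENCODE vM21 and held 89.5% of counts. Each of 33964 genes was represented by its transcript with most counts, since a read can count on several transcripts; 12322 genes had 2 or more, and the plan had assumed counts per gene.

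Each comparison was fitted over all genes in R 4.3.3 with edgeR 4.0.16 (filterByExpr, TMM, quasi-likelihood F test, Benjamini-Hochberg adjusted p under 0.05), and differences between responses as interaction terms. Levels are CPM on TMM-scaled totals of the 14 pools. With 2 pools a group, the smallest p of an exact permutation test is 0.333, so p-values come from these fits. Their estimate of the spread between pools borrows from all genes as well as the gene itself. Spread between the mice within a pool was not measured. Alternatives were DESeq2 1.42.0, other scalings, filters, sums over transcripts, a replicate block, wider fits, the files as attached and each pool left out. On simulated data, edgeR recovered 54.5% (LV, 14783 genes), 78.0% (4V, 14316 genes), 78.0% (Otx2 (+/-), 14377 genes) and 79.5% (Otx2 (+/AA), 14274 genes) of 200 genes changed by 1 on the log2 scale. The simulation gave every gene of a comparison the same dispersion, unlike the data, so these shares do not measure power in the data. Named were all members, genes of the 6 pathway lists (52 genes) and 8 marker lists past the threshold in at least 1 comparison, and for each member the 3 genes most correlated over pools. Rbp4, Alb and Gfap are named outside that rule, after their values were seen. A gene of the transporter list is not reported here, and the counts leave it out. Members and lists were chosen with earlier results of these data known. Promoters came from RefSeq, GRCm38.p6, for 27025 genes.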

Additional observations from a re-analysis of the deposited data

Results flagged for a closer look

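The response to the label Otx2 (+/-) minus the response to the label Cre-Tat in 4V ChP was the only difference between responses in which a member or a gene of the lists passed (edgeR interaction term, 2 pools a group). The difference on the log2 scale was 1.05 for the thyroxine carrier Slco1c1 (adjusted p = 0.0276). Slco1c1 was lower in Cre-Tat 4V than in vehicle pools, and higher in Otx2 (+/-) than in WT without passing (adjusted p = 0.144). Its interaction call was lost in most fits that leave out 1 pool. The difference was 2.104 for the transporter Slco1a6 (adjusted p = 0.0114) and 4.739 for the receptor Trhr (adjusted p = 0.000209), both of which rose in Otx2 (+/-) and did not pass in Cre-Tat 4V pools. The epithelial marker Htr2c gave 0.947 (adjusted p = 0.0235), and the macrophage markers Ptprc and C1qa gave -1.25 (adjusted p = 0.0371) and -1.2 (adjusted p = 0.0439). Strain, injection and sequencing run differ together with the model in each of these values and cannot be told apart from it.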

How the results depend on the processing

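Over 1296 repeats of single values and calls under other settings, 1070 kept their direction and their side of the threshold (for counts, stayed within 1.5 times), 98 gained and 77 lost a call or count, and 51 changed sign. Of 117 repeats of the count of members called, 72 stayed, 37 rose and 8 fell. The members called numbered 0 in LV ChP, 2 in Cre-Tat 4V, 1 in Otx2 (+/-) against WT, 0 in Otx2 (+/AA) against WT, 0 between these, 0 between vehicle ventricles, 0 for the ventricle interaction and 1 for the model interaction. DESeq2 gave 1 in LV ChP, 2 in Otx2 (+/-), 1 in Otx2 (+/AA) and 1 between these. With no filter on low counts there were 1 in LV ChP, 2 in Otx2 (+/AA), 1 between Otx2 (+/-) and Otx2 (+/AA), 1 between ventricles and 2 for the model interaction. Sums over transcripts gave 1 in LV ChP. Totals in place of TMM factors gave 1 in Cre-Tat 4V and 1 between Otx2 (+/-) and Otx2 (+/AA), and totals without Ttr and mitochondrial transcripts gave 1 in each Otx2 (+/AA) comparison. Leaving out 1 pool gave 0 to 1 in LV ChP, 0 to 2 in Cre-Tat 4V, 1 to 2 in Otx2 (+/-), 0 to 1 in Otx2 (+/AA), 0 to 2 between these, 0 to 1 between ventricles, 0 to 0 for the ventricle interaction and 0 to 1 for the model interaction. The cause of these changes was not tested.

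What a shared pool letter marks is not given in the sources used here, nor whether LV and 4V pools of the same letter came from the same injected mice, so the letters were not taken to pair pools. Deviations of same-letter pools correlated at -0.12 in LV ChP, 0.14 in Cre-Tat 4V, 0.35 in Otx2 (+/-) against WT, 0.075 in Otx2 (+/AA) against WT, 0.071 between these and 0.067 between ventricles. With the replicate block 1 member passed in LV ChP (Ttr, adjusted p = 0.0187), 3 in Cre-Tat 4V (Thra in addition, adjusted p = 0.0281), 4 in Otx2 (+/-) (Ttr, Slco1c1, Dio2 and Thrb), 2 in Otx2 (+/AA) (Dio2 and Thrb), 1 between these (Slco1c1), 2 between ventricles (Slco1c1 and Thra) and 2 for the model interaction (Slco1c1 and Dio2). Over all genes, the block also called more than the main fit in each comparison. It called 3117 of 14537 genes tested in Cre-Tat 4V (1554 without it) and 2522 of 14561 in Otx2 (+/-) (514). It called 547 in Otx2 (+/AA) against WT (50), 2277 between ventricles (1090) and 1043 for the model interaction (247). Larger member counts under the block thus came with larger counts over all genes. A crossed replicate block in LV ChP, chosen after seeing the data, also gave 1 member, with 995 genes called beside 621 under the block and 486 without it.

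With the files as attached to the samples, pools A and B hold runs of the same libraries, so that their p-values are small by construction. Each such pool also joins files of unlike library numbers (chi-square per degree of freedom of 13.58 to 21.39). Log2 fold changes under this setting therefore compare other sets of libraries than the main fits. Members called were then 3 in LV ChP, 4 in Cre-Tat 4V, 3 between ventricles, 4 for the ventricle interaction and 2 for the model interaction. In that order, 6705 of 14943, 8741 of 14845, 4715 of 14442, 5246 of 15366 and 4681 of 15408 genes tested were called. Log2 fold changes turned to 0.2239 (Ttr), 0.4384 (Slco1c1), 0.1087 (Slco1a5) and -0.01327 (Otx2) in LV ChP. In Cre-Tat 4V they turned to 0.8483 (Ttr), 0.607 (Slco1c1), 0.09595 (Slco1a5), -0.4678 (Thrb), 0.1903 (Slco1a4), 0.3592 (Slc7a5), -0.218 (Klf9) and -0.2902 (Otx2). They turned to -0.05702 (Rxra) and 0.4544 (Trhr) between ventricles, to 0.6262 (Ttr), 0.1705 (Slco1c1) and -0.3876 (Thrb) for the ventricle interaction and to -1.622 (Ttr) and -0.1306 (Slco1c1) for the model interaction. With totals in place of TMM factors, the log2 fold change in LV ChP turned to 0.03387 (Slco1a5) and 0.1192 (Thrb) and that of Slco1a5 between ventricles to -0.1699. Totals without Ttr and mitochondrial transcripts turned Thrb in LV ChP to 0.04824, no filter turned Dio2 there to -6.775e-05, and sums over transcripts turned Slco1a5 between ventricles to -0.00442. None of these values turned by scaling or filter had passed the test.

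With 1 pool left out, log2 fold changes that changed sign ranged in LV ChP from -0.2593 to 0.3421 (Dio2) and -0.1425 to 0.03231 (Thrb). In Cre-Tat 4V they ranged from -0.08974 to 0.3144 (Thrb) and -0.9273 to 0.6269 (Dio2). Against WT they ranged from -0.3031 to 0.1222 (Thra) and -0.03432 to 0.693 (Thrb) in Otx2 (+/-), and from -0.3266 to 0.02451 (Slco1c1) and -0.08017 to 0.1652 (Slco1a5) in Otx2 (+/AA). Between these groups they ranged from -0.5076 to 0.2144 (Thrb) and -0.8963 to 0.203 (Dio2), and between ventricles from -0.01008 to 0.05897 (Slco1a5) and -1.037 to 0.5223 (Dio2). For the ventricle interaction they ranged from -0.06031 to 0.2617 (Thra), -0.9476 to 0.6072 (Dio2) and -0.04681 to 0.3617 (Thrb), and for the model interaction from -0.174 to 0.01624 (Slco1a5) and -0.1525 to 0.5772 (Thrb). Depth limits Dio2 and Dio3 most, with 10 to 272 and 0 to 9 counts a pool.

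Genes called over all genes ranged, over settings other than the files as attached, from 325 to 995 in LV ChP, 890 to 3117 in Cre-Tat 4V, 387 to 2522 in Otx2 (+/-), 18 to 547 in Otx2 (+/AA), 248 to 787 between these, 408 to 2277 between ventricles, 0 to 31 for the ventricle and 80 to 1043 for the model interaction. Of the 52 other pathway genes, not all of which were tested in each comparison, 1, 7, 3, 0, 5, 4, 0 and 2 were called in these comparisons in the same order, with ranges of 0 to 2, 2 to 16, 3 to 11, 0 to 2, 4 to 7, 2 to 11, 0 to 0 and 1 to 6. In that order, the main fits first called 486 of 14990, 1554 of 14537, 514 of 14561 and 50 of 14482 genes tested. They then called 393 of 14566, 1090 of 14548, 1 of 15552 and 247 of 15314.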
